A study of Mus musculus with 10 samples.

Results

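The genes described here encode the UDP-glycosyltransferases (UGT) and the cytosolic sulfotransferases (SULT) of mouse liver, chosen by symbol: every gene whose symbol starts with Ugt1a, Ugt2a, Ugt2b or Ugt3a, or with Sult and a digit. The rule found 38 genes among 23420 in the count files, 20 UGT and 18 SULT genes. RNA-seq libraries were made from livers of C57BL/6 mice aged 4 months. The fed group (5 mice) ate standard chow, and the starved group (5 mice) had water but no food for 48 hours. Each library carries the replicate number of its sample title, and the series asks how metabolic state acts on gene expression through β-hydroxybutyrylation of histones. No transgene, deletion or drug is named for either group.

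UGT enzymes of the endoplasmic reticulum transfer a sugar, usually glucuronate from UDP-glucuronate, to bilirubin, steroids, bile acids, phenols and drugs. SULT enzymes of the cytosol transfer sulfate from the donor PAPS to much the same kinds of molecule. Both conjugations make lipophilic compounds water-soluble for export into bile or blood, and both can end the action of a hormone. Levels of several of these genes, among them Sult1e1, Sult2a1 and Sult3a1, are known to differ between male and female mouse liver.

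The labelled sex did not match the libraries. The labels give all mice as male, but Xist, the transcript of the inactive X chromosome of female cells, stood at 96.0 to 260.4 CPM (reads relative to the library total, after TMM, edgeR's trimmed-mean scaling) in fed and 292 to 418 CPM in starved livers. Of 6 Y-linked genes (Ddx3y, Eif2s3y, Kdm5d, Uty, Usp9y and Zfy1), all 10 libraries together held 1 read. These 7 genes were looked at after the values of sex-dependent liver genes were seen. The mismatch covers both groups, and the labelled sex is not relied on below.

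Reads in genes came to 22978413 to 29941358 in fed and 18197194 to 28065220 in starved libraries, so that 3 reads correspond to 0.0994 to 0.174 CPM. The mean correlation of log2 levels with the other libraries of the group was 0.992 to 0.993 in fed and 0.951 to 0.977 in starved livers, lowest in starved liver 2. Starved livers 2 and 4 stood apart from the other starved livers in the neutrophil (21.2 and 27.2 CPM) and cholangiocyte (16.1 and 15 CPM) marker sums. Most of the cholangiocyte sum was Spp1 (12.0 and 12.6 CPM in these livers). They were also the lowest starved livers in the Kupffer cell and macrophage sum (207 and 138 CPM, the others 241 to 296). The same held for the lymphocyte sum (0.427 and 0.903 CPM, the others 1.27 to 2.75). Changes of the UGT and SULT genes are therefore given also without both, an alternative chosen after the data were seen. The changed genes named from the other lists below kept their direction without both, and Hnf4a alone of them lost its call. All 9 hepatocyte markers were present and summed to 122655 to 171534 CPM in fed and 135407 to 195916 CPM in starved livers, mostly through Alb (means of 82699 and 94168 CPM). Of these markers Apoa1 rose (0.99 ± 0.20) and Ttr (−0.88 ± 0.22) and Trf (−0.65 ± 0.19) fell. The libraries are of whole liver, where fewer cells of a type and less RNA per cell cannot be told apart. Kupffer cell and macrophage markers were lower in starved liver (6 of 7 fell, none at 0), and summed to 362 to 586 CPM in fed and 138 to 296 in starved. All 4 tested of 5 neutrophil markers rose (summed 1.79 to 3.86 and 3.19 to 27.2 CPM), and Camp was under 0.1 CPM throughout. Mmp8 and Retnlg among them passed the filter on low counts through the starved livers, where they are higher (fed means of 0.0940 and 0.252 CPM). Cholangiocyte markers summed to 46.9 to 57.5 and 15 to 40.8 CPM, mostly through Spp1 (means of 47.2 and 24.2 CPM), which alone of 5 tested fell. Of 7 endothelial markers 1 rose and 4 fell (248 to 293 and 201 to 255 CPM), of 7 stellate cell markers 1 rose and 2 fell (396 to 457 and 420.4 to 620.3 CPM), and of 3 tested lymphocyte markers 1 fell (2.54 to 4.07 and 0.427 to 2.75 CPM). The stellate cell sum was mostly Dcn, the marker that rose (means of 263 and 369.8 CPM), and the other stellate cell markers had lower means in starved liver. Markers of intestine or pancreas summed to 87.5 to 163 and 93.6 to 267 CPM, mostly through Fabp2 (means of 93.3 and 163 CPM), which was not called. Of 4 tested 1 fell, and Cdx2, Prss1 and Ins2 had no read. Among all tested genes, 18.6% rose and 20.0% fell. The part of these cells in the results was not tested.

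Of the 38 genes, 28 had enough reads to be tested, and 16 of these changed with starvation in edgeR's quasi-likelihood test at an adjusted p under 0.05. Of these, 6 rose and 10 fell: 3 UGT genes rose and 6 fell of 16 tested (median log2 fold change −0.26), and 3 SULT genes rose and 4 fell of 12 tested (−0.38). Across all 12796 tested genes, 38.6% were called, 18.6% higher and 20.0% lower in starved liver. The median log2 fold change of the 28 genes was −0.30 and that of all genes 0.00. The sulfotransferases Sult1e1, Sult1d1 and Sult1a1 rose by at least 2-fold, where 5.44% of all genes did so. At least 2-fold lower were 8 genes, against 7.79% of all genes: Sult1c2, Sult2a7, Sult2a5, Sult5a1, Ugt1a5, Ugt2b38, Ugt2b1 and Ugt2b37. Without starved livers 2 and 4, 6 genes rose and 6 fell (20.2% and 20.7% of all genes), and 6 fell likewise without fed liver 5, starved liver 3 or starved liver 4 alone. In each of these 4 cases 3 UGT genes fell. With library totals alone as scaling, which moved the median of all genes to −0.15, 4 rose and 12 fell, and 29.9% of all calls were higher in starved liver where 48.2% were with TMM. Levels of fed and starved livers did not overlap in 11 of the 28 genes, against 29.9% of all tested genes.

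**Figure D1:**
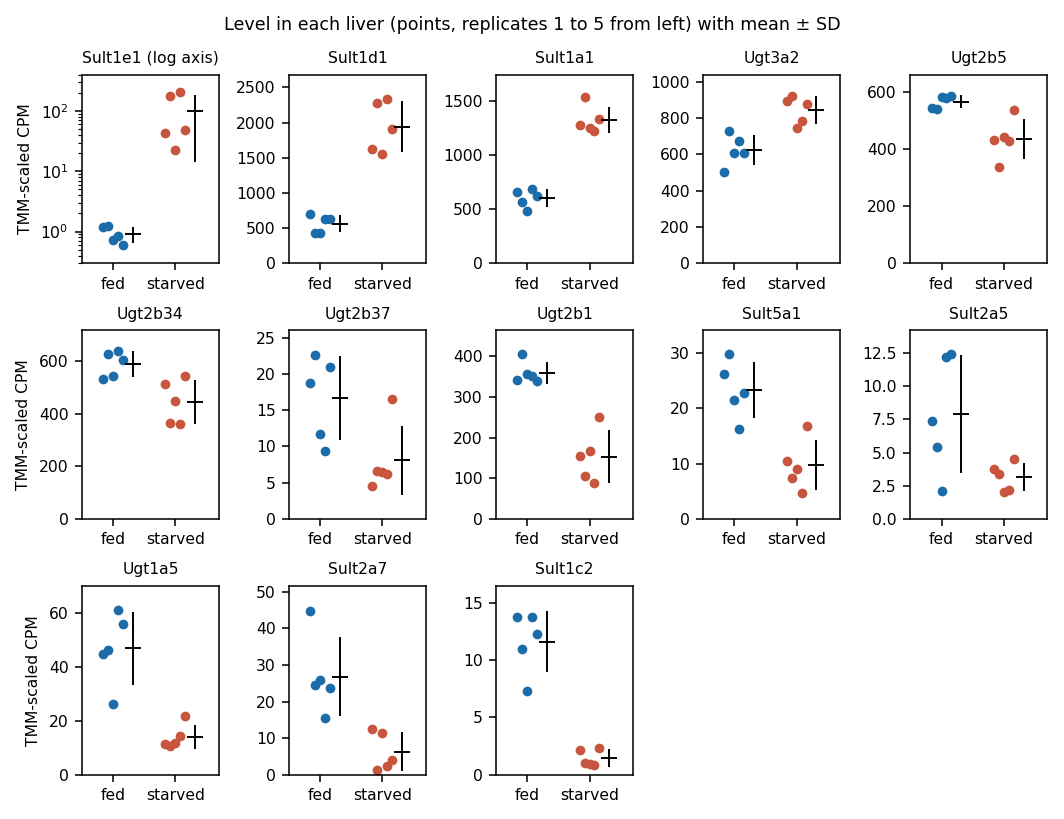
Level of 13 called UGT and SULT genes in each liver (TMM-scaled CPM on the vertical axis, logarithmic for Sult1e1; fed in blue, starved in red, replicates 1 to 5 from left to right), with the mean ± SD of each group in black. Sult1e1 lies at or under 1.23 CPM in every fed and at or above 22.8 CPM in every starved liver, and starved livers 2 and 4 are the highest.

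Sult1e1 encodes the sulfotransferase that inactivates estrogens. It lies on chromosome 5 (87575969 to 87591594, minus strand, mm10) and had the largest log2 fold change of the 28 tested genes. In fed livers 1 to 5 its level was 1.19, 1.23, 0.735, 0.860 and 0.604 CPM. In starved livers 1 to 5 it was 43.2, 176, 22.8, 209.5 and 48.9 CPM. All starved livers were far above all fed livers, and starved livers 2 and 4 stood well above the other starved livers. The mean was 108-fold higher in starved liver (log2 fold change 6.74 ± 0.69 SE, adjusted p = 5.61e-05, edgeR), and the log2 fold change without starved livers 2 and 4 was 5.37.

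Sult1d1, a sulfotransferase of catecholamines such as dopamine, is the next gene on the same strand. Its levels were 699, 435, 425, 632 and 628 CPM in fed livers 1 to 5 and 1623, 2285, 1548, 2342 and 1906 CPM in starved livers 1 to 5. The groups did not overlap, and livers 2 and 4 were again the highest starved livers, but by less than for Sult1e1. The mean rose 3.44-fold (log2 fold change 1.78 ± 0.19, adjusted p = 7.04e-05, edgeR; 1.6 without livers 2 and 4).

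Sult1a1 is the main sulfotransferase of simple phenols and lies on chromosome 7 (126672865 to 126676432, minus strand). Fed livers 1 to 5 held 658, 563, 480.3, 686 and 625 CPM and starved livers 1 to 5 held 1275, 1533, 1255, 1223 and 1336 CPM. Every starved liver was above every fed liver, and the starved livers were close to each other. The rise was 2.20-fold (1.14 ± 0.13, adjusted p = 0.0001, edgeR; 1.12 without livers 2 and 4). Sult1a1 shares 61 exon bases with Sgf29 on the opposite strand, and no strand setting for the counting is given in the sources used here.

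The other SULT1 genes did not rise. Sult1c2, on chromosome 17, fell 7.99-fold, from 13.8, 11.0, 7.35, 13.8 and 12.3 CPM in fed livers 1 to 5 to 2.18, 1.01, 0.885, 0.831 and 2.37 CPM in starved livers 1 to 5. The groups were well apart (−3.0 ± 0.32, adjusted p = 7.37e-05, edgeR; −2.66 without livers 2 and 4). Sult1b1, a sulfotransferase of thyroid hormones that lies beside Sult1d1, was not called at 59.4 ± 8.86 and 48.1 ± 18 CPM (−0.30 ± 0.23, adjusted p = 0.318, edgeR; 0.03 without livers 2 and 4). Sult1c1 had no read in any library. In reads, Sult1a1 made up 48.9% ± 2.60 of the SULT1 total in fed and 39.2% ± 4.48 in starved livers, and Sult1d1 45.2% ± 3.15 and 56.6% ± 3.18.

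SULT2 enzymes sulfate hydroxysteroids such as dehydroepiandrosterone, and bile acids. Of 8 SULT2 genes, 5 were tested, 0 rose and 2 fell by edgeR, and at an unadjusted p under 0.05 the count was 0 up and 2 down. DESeq2 called 0 up and 2 down, and limma-voom 0 up and 1 down. By edgeR, 18.6% of all tested genes rose and 20.0% fell. Sult2a7 stood at 44.7, 24.6, 25.8, 15.4 and 23.6 CPM in fed and 12.5, 1.18, 11.5, 2.24 and 4.11 CPM in starved livers 1 to 5. No starved liver reached the level of any fed liver, and starved livers 2, 4 and 5 were the lowest (−2.08 ± 0.55, adjusted p = 0.0111, edgeR; −1.47 without livers 2 and 4). Sult2a5 stood at 7.41, 5.43, 2.13, 12.2 and 12.4 CPM in fed and 3.77, 3.42, 2.02, 2.20 and 4.52 CPM in starved livers 1 to 5. Fed liver 3 lay among the starved livers, and the call (−1.32 ± 0.42, adjusted p = 0.026, edgeR) was lost without fed liver 4 or 5, starved liver 3 or 4, or starved livers 2 and 4 together (−1.19).

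Of the 8 SULT2 genes matched by symbol, Sult2a1 and Sult2a2 had the most reads, and they were not called. The SULT2 gene Sult2a8 stands in the files under an older symbol, 2810007J24Rik, outside the rule. It had more reads than either in fed liver and fell, from 1390 ± 291 to 313 ± 189.6 CPM (−2.15 ± 0.42, adjusted p = 0.00236, edgeR). Sult2a1 was at 339.7, 214, 54.1, 245 and 329.6 CPM in fed and 319, 365, 175, 297 and 388 CPM in starved livers 1 to 5 (0.39 ± 0.39, adjusted p = 0.45, edgeR). Sult2a2 was at 149, 99.1, 37.8, 109 and 139.7 CPM in fed and 90.5, 79.1, 52.2, 70.9 and 97.7 CPM in starved livers 1 to 5 (−0.45 ± 0.30, adjusted p = 0.252, edgeR). Fed liver 3 was the lowest fed liver for both, and also for Sult2a3 and Sult2a5. Sult2a3 stood at 0.221 CPM in fed liver 3 and at 2.05 CPM or more in the other fed livers, and was not called (3.59 ± 2.52 and 2.09 ± 1.13 CPM; −0.74 ± 0.61, adjusted p = 0.347, edgeR). Without fed liver 3 Sult2a2 was called (−0.67, adjusted p = 0.0228, edgeR). These genes share sequence: 29.5% of the 50-base stretches of Sult2a1 transcripts also occur in Sult2a2 transcripts, and 62.1% of those of Sult2a2 in some other gene. Reads without a unique place were not counted, so the levels of Sult2a1 and Sult2a2 are understated and uncertain. Sult2a4, Sult2a6 and Sult2b1, a sulfotransferase of cholesterol, averaged 0.0385 to 0.294 CPM in either group and were not tested.

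Of the remaining sulfotransferases, Sult3a1 was not called, at 458, 458, 378, 233 and 268 CPM in fed and 428, 142, 444, 259 and 396 CPM in starved livers 1 to 5. Starved livers 2 and 4 were the lowest of their group (−0.10 ± 0.30, adjusted p = 0.804, edgeR), and without them the log2 fold change turned to 0.26 (adjusted p = 0.341). Sult5a1 fell, from 26.1, 29.7, 21.5, 16.3 and 22.7 CPM in fed to 10.5, 7.43, 9.04, 4.59 and 16.8 CPM in starved livers 1 to 5. Only starved liver 5 reached the level of a fed liver (−1.27 ± 0.29, adjusted p = 0.00527, edgeR; −0.93 without livers 2 and 4). Sult4a1, known from brain, and Sult6b1 averaged at most 0.218 CPM and were not tested.

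Summed over the 18 SULT genes matched by symbol, the level was 2002 ± 358 CPM (SD, n = 5) in fed and 4157 ± 428 CPM in starved livers, and the groups did not overlap (1487 to 2475 and 3572 to 4629 CPM). SULT1 genes summed to 1238 ± 208 CPM in fed and 3415 ± 495 CPM in starved livers. SULT2 genes summed to 382 ± 169 and 399 ± 97.5 CPM. The 20 UGT genes summed to 3954 ± 269.7 and 3747 ± 399.9 CPM. These sums are descriptions without a test, and they depend on the match by symbol. With Sult2a8 added, the SULT2 sum was 1772 ± 394 CPM in fed and 712 ± 181 CPM in starved livers, lower in every starved liver than in any fed liver. With it and the other SULT genes under older symbols, Gm4794 (Sult3a2) and Gm766 (Sult6b2), the SULT sum was 3416 ± 595 and 4504 ± 269 CPM, and the groups overlapped (2847 to 4419 and 4129 to 4737 CPM).

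**Figure D2:**
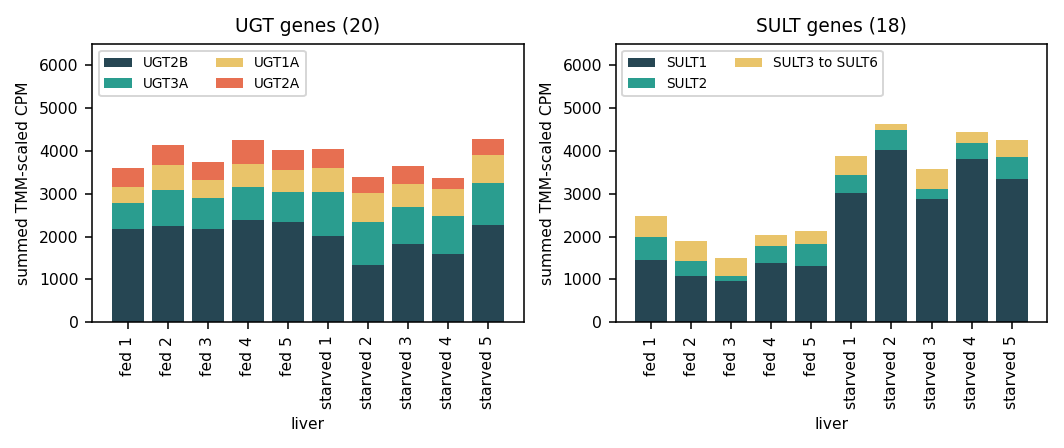
Summed TMM-scaled CPM of UGT genes (left) and SULT genes (right) in each of the 10 livers, divided by gene family (colours). The SULT sum lies between 3572 and 4629 CPM in starved livers, above every fed liver, while the UGT sums of both groups overlap. SULT genes under older symbols are not drawn, and with them the SULT sums overlap too.

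UGT1A enzymes conjugate bilirubin and phenols. Their genes share one locus on chromosome 1: each has its own promoter and first exon, and all use the same later exons. By the annotation, 50.3% to 60.6% of the exon bases of each UGT1A gene belong also to other UGT1A genes, and how such shared reads were counted is not stated in the labels. Of 8 UGT1A genes 6 were tested, 2 rose and 1 fell (33.3% and 16.7%, against 18.6% and 20.0% of all tested genes), so genes of 1 locus moved in both directions.

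Ugt1a5 fell 3.36-fold. It stood at 44.6, 46.3, 26.1, 61.0 and 56.0 CPM in fed livers 1 to 5 and 11.2, 10.7, 11.7, 14.3 and 21.7 CPM in starved livers 1 to 5. The groups did not overlap (−1.75 ± 0.25, adjusted p = 0.000403, edgeR; −1.65 without livers 2 and 4). Ugt1a9, an enzyme of bulky phenols and many drugs, rose from 33.5, 45.5, 54.9, 66.0 and 56.2 CPM in fed to 86.1, 84.0, 91.8, 72.5 and 73.8 CPM in starved livers 1 to 5. No starved liver overlapped a fed one (0.67 ± 0.16, adjusted p = 0.00721, edgeR; 0.73 without livers 2 and 4).

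Ugt1a1, the bilirubin glucuronosyltransferase and the most abundant of the locus per kilobase of unshared exon (384 CPM per kb in fed and 514 in starved liver), was at 273, 447, 317, 355 and 359 CPM in fed and 413, 541, 399.6, 503 and 489.8 CPM in starved livers 1 to 5. The highest fed liver lay within the starved range. The call (0.42 ± 0.15, adjusted p = 0.0373, edgeR) was lost without any of fed livers 1, 3, 4 and 5 or starved livers 4 and 5, without starved livers 2 and 4 together (0.33, adjusted p = 0.0859), and with library totals alone as scaling (0.26). Ugt1a6a and Ugt1a6b, enzymes of planar phenols, and Ugt1a10 were not called, at 25.1 ± 4.68 and 21.7 ± 3.63 CPM, 20.2 ± 2.85 and 17.4 ± 2.45 CPM, and 1.93 ± 0.357 and 1.49 ± 0.619 CPM (log2 fold changes −0.21 ± 0.15, −0.21 ± 0.13 and −0.39 ± 0.27). Ugt1a2 and Ugt1a7c averaged at most 0.268 CPM and were not tested. As a share of UGT1A reads, Ugt1a5 went from 9.47% ± 2.47 in fed to 2.29% ± 0.676 in starved livers, and Ugt1a1 from 70.6% ± 3.67 to 77.3% ± 3.07.

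Genes of the UGT1A locus differ in the sequence before the start, where their later exons do not. The 150 bases before the RefSeq start (GRCm38.p6) are shown for the UGT1A genes that changed, Ugt1a1 (chr1:88211809-88211958, plus strand), Ugt1a9 (chr1:88070629-88070778, plus strand) and Ugt1a5 (chr1:88165862-88166011, plus strand), and for the adjacent SULT1 genes that rose, Sult1d1 (chr5:87569007-87569156, minus strand) and Sult1e1 (chr5:87591612-87591761, minus strand). All run 5′ to 3′ along the gene and end at the last base before the start. Capitals mark GTTAAT or its reverse complement, the short core of an HNF1 site (HNF1 is a transcription factor of hepatocytes).
Ugt1a1: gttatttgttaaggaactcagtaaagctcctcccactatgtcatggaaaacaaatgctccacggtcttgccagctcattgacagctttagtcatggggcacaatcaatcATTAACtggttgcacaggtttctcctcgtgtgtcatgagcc
Ugt1a9: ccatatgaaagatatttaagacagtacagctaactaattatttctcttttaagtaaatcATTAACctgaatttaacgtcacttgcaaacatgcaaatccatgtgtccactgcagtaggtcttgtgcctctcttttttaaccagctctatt
Ugt1a5: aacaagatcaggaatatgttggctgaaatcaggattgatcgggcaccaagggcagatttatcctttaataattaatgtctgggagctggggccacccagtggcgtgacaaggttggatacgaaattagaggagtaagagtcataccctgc
Sult1d1: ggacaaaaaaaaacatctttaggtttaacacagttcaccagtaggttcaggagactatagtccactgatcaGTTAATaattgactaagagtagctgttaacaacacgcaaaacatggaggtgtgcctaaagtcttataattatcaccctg
Sult1e1: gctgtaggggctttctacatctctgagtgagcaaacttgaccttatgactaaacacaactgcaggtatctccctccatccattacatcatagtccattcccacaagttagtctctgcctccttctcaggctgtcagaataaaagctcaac

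In these windows the letters of this core begin 41 bases before the start in Ugt1a1, 91 bases before it in Ugt1a9 and 79 bases before it in Sult1d1, and do not occur in Ugt1a5 and Sult1e1. Only exact letters were searched, so near matches, such as tttaat in Ugt1a5, were not counted. RefSeq's table held a window of 250 bases before the start for 32 of the 38 genes, 23 of them tested. The HNF1 core was found on either strand in 4 of 5 genes that rose (Sult1a1, Sult1d1, Ugt1a1 and Ugt1a9), 1 of 9 that fell (Sult2a5) and 5 of 9 that were not called, and in 6.43% of all 32841 windows of this length. The other 6 motifs were searched the same way, and all were chosen with the fold changes known. AGGTCA, the short core bound by many nuclear receptors, was in 2, 3 and 3 genes of these groups (14% of all windows), TGTTTAC, a FOX core, in 0, 2 and 1 (3.17%), and GCGTG, the AHR core, in 1, 1 and 1 (28.2%). TGACNNNGC, the antioxidant response core, was in none (10.2%), TATAAA, the TATA box, in 0, 1 and 1 (12.4%), and TTGCNNAA, a C/EBP site, in 0, 1 and 2 (9.57%). A match is a stretch of letters and says nothing of binding in these livers.

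UGT2 enzymes conjugate steroids, bile acids and drugs. All 7 UGT2B genes and Ugt2a3 lie in one cluster on chromosome 5 that ends with Sult1b1, Sult1d1 and Sult1e1, 13 genes over 702 kb. Of the UGT2B genes 5 fell and 0 rose by edgeR, with a median log2 fold change of −0.40; at an unadjusted p under 0.05 the count was 1 up and 5 down. DESeq2 called 1 up and 5 down, and limma-voom 0 up and 5 down. Without starved livers 2 and 4, 2 fell and 1 rose. With all livers, 20.0% of all tested genes fell and 18.6% rose by edgeR.

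**Figure D3:**
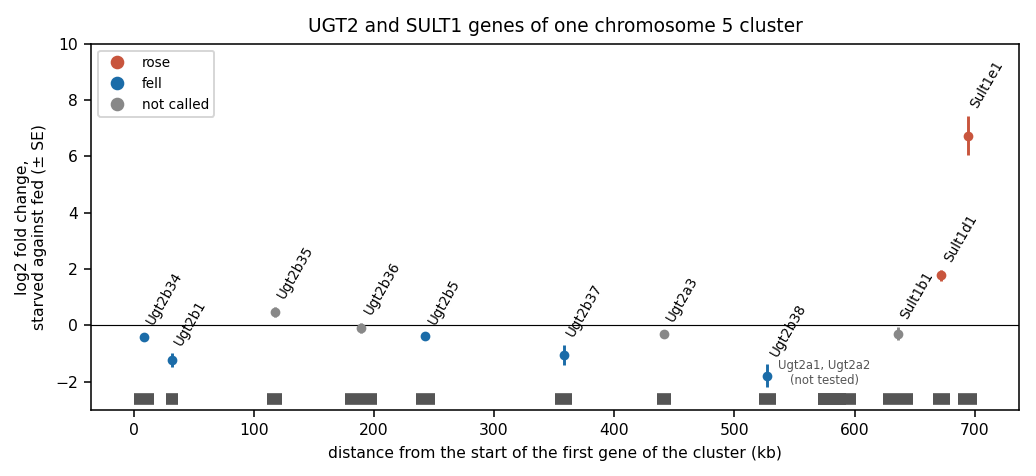
Log2 fold change of starved against fed liver (± SE, vertical axis) for the UGT2 and SULT1 genes of the chromosome 5 cluster by distance from the start of its first gene (kb, horizontal axis), with grey bars for the genes. The 5 UGT2B genes that fell lie below 0 in blue, and the last 2 genes of the cluster, Sult1d1 and Sult1e1, lie above it in red.

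Ugt2b1 (chromosome 5, 86916638 to 86926530) fell 2.34-fold. Its level was 343, 406, 356, 351 and 339 CPM in fed and 156, 106, 166, 87.4 and 252 CPM in starved livers 1 to 5. The fed livers were close to each other, and all starved livers were below them, livers 2 and 4 the lowest (−1.23 ± 0.24, adjusted p = 0.00234, edgeR; −0.89 without livers 2 and 4).

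Ugt2b37, Ugt2b38 and Ugt2b5 fell too, and these genes resemble each other. Ugt2b37 was at 18.7, 22.7, 11.7, 9.43 and 21 CPM in fed and 4.59, 6.68, 6.49, 6.25 and 16.5 CPM in starved livers 1 to 5. Starved liver 5 alone lay within the fed range (−1.05 ± 0.35, adjusted p = 0.0321, edgeR). This call was lost without any of fed livers 1, 2 and 5 or starved livers 1, 3 and 4, and without starved livers 2 and 4 together (−0.88). Ugt2b38 had 13 to 23 reads in fed and 1 to 6 reads in starved livers (0.650 ± 0.190 and 0.186 ± 0.115 CPM; −1.79 ± 0.40, adjusted p = 0.00472, edgeR; −1.59 without livers 2 and 4). It passed the filter on low counts through the fed livers, where it is higher.

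Ugt2b5 stood at 542, 539, 582, 578 and 584 CPM in fed and 432, 338, 442, 429 and 537 CPM in starved livers 1 to 5. Each starved liver was below each fed liver, liver 5 by the least (−0.38 ± 0.12, adjusted p = 0.0306, edgeR). The call was lost without any of fed livers 3, 4 and 5 or starved livers 1, 3 and 4, and without starved livers 2 and 4 together (−0.25). Of the 50-base stretches of Ugt2b5 transcripts, 34.8% occur also in Ugt2b38, and 15.2% of those of Ugt2b37 occur in Ugt2b5. Reads from such stretches have no unique place and were not counted, so these levels are understated and uncertain.

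The likeness extends to the bases before the start. Shown are 150 bases before the RefSeq starts of Ugt2b5 (chr5:87140341-87140490), Ugt2b37 (chr5:87254789-87254938) and Ugt2b38 (chr5:87424204-87424353), all on the minus strand and written 5′ to 3′ along the gene. Capitals mark AGGTCA.
Ugt2b5: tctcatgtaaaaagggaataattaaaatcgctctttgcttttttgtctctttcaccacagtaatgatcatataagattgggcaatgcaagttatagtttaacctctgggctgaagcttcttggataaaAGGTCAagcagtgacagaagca
Ugt2b37: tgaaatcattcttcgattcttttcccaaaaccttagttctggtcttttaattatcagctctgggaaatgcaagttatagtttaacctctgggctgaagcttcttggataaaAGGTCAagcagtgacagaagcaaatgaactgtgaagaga
Ugt2b38: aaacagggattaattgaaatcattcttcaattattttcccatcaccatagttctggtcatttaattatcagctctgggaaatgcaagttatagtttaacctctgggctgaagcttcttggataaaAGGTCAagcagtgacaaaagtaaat

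A run of 62 bases that includes these letters is identical in these genes and was found in 3 of all 32841 windows, those of the genes themselves. In a global alignment of 250 bases, Ugt2b5 was 81.5% identical to Ugt2b38, 72.6% to Ugt2b37 and 46.3% to Ugt2b1. AGGTCA begins 22, 39 and 25 bases before the annotated starts of Ugt2b5, Ugt2b37 and Ugt2b38. On either strand of the 250 bases it was also found in Ugt2b35 and Ugt2b36, which were not called. It was absent from Ugt2b1 and Ugt2b34, which fell.

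Ugt2b34 stood at 532, 627, 542, 638 and 604 CPM in fed and 514, 365, 449.6, 359.6 and 542 CPM in starved livers 1 to 5. The groups overlapped at starved liver 5, and the call (−0.40 ± 0.14, adjusted p = 0.0385, edgeR) was lost under 11 of 20 alternatives, among them leaving out any of fed livers 2 to 5 or starved livers 2, 3 and 4, and leaving out starved livers 2 and 4 together (−0.21). Ugt2b36 was at 579, 489, 517, 620.3 and 621 CPM in fed and 633, 383, 547, 417 and 673 CPM in starved livers 1 to 5 (−0.09 ± 0.17, adjusted p = 0.688, edgeR; 0.15 without livers 2 and 4). Ugt2a3 was at 443, 456, 416, 562 and 464 CPM in fed and 463, 387, 415, 261 and 373 CPM in starved livers 1 to 5 (−0.30 ± 0.15, adjusted p = 0.133, edgeR). Neither was called, and with library totals alone Ugt2a3 was (−0.46). Ugt2b35, the only gene of the cluster on the plus strand, was not called at 167 ± 7.62 and 233 ± 68.1 CPM (0.48 ± 0.19, adjusted p = 0.0643, edgeR), but it was without starved liver 2 (0.65, adjusted p = 0.000732) and without livers 2 and 4 (0.58, adjusted p = 0.000757). Ugt2a1 had 3 reads in all and Ugt2a2 none.

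UGT3A enzymes are known to use sugars other than glucuronate. Ugt3a2 was at 502, 729, 606, 673 and 607 CPM in fed and 896, 923, 745, 785 and 879 CPM in starved livers 1 to 5. Even the lowest starved liver lay above the highest fed liver (0.44 ± 0.12, adjusted p = 0.0161, edgeR; 0.45 without livers 2 and 4), and the call was lost with library totals alone (0.28). Its neighbour Ugt3a1 stood at 105 ± 6.66 and 109 ± 17 CPM (0.05 ± 0.12, adjusted p = 0.762, edgeR) and was not called.

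**Figure D4:**
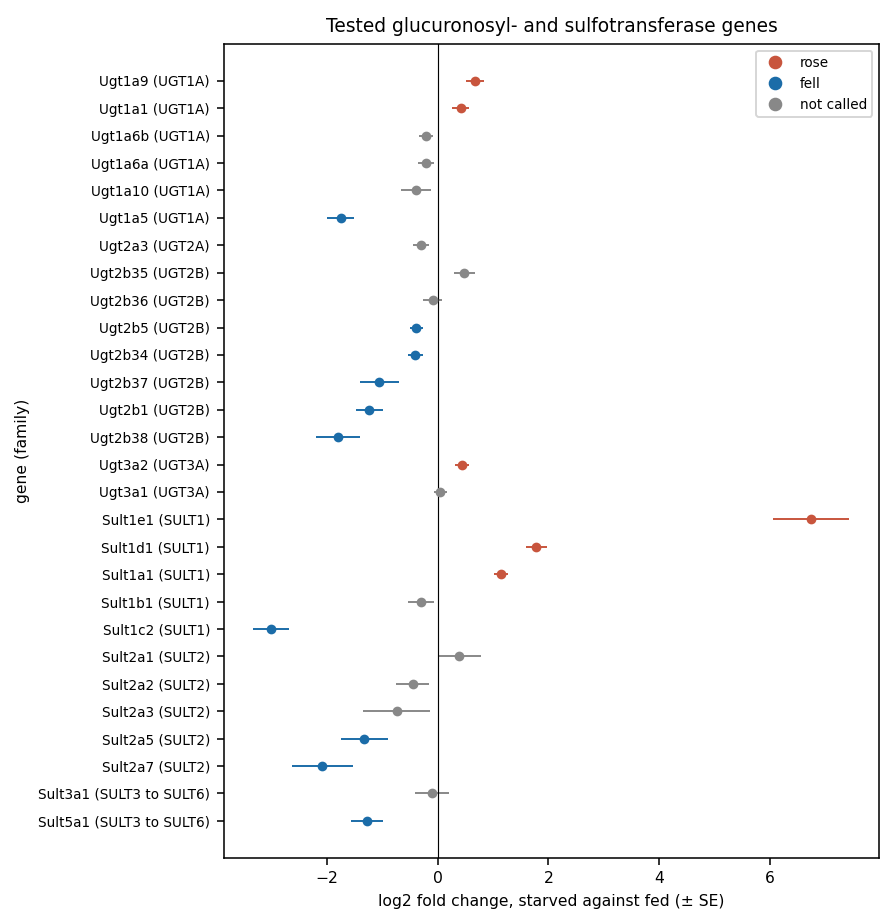
Log2 fold change of starved against fed liver (± SE, horizontal axis) for the 28 tested UGT and SULT genes, by family; red marks genes that rose, blue genes that fell and grey genes not called. Sult1e1 stands far to the right at 6.74, and the SULT1 family spans from −3.0 to 6.74.

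Among the genes matched by symbol, the highest levels per kilobase of unshared exon in fed liver were those of Sult1a1 (399.8 CPM per kb), Ugt1a1 (384), Sult3a1 (311), Ugt2b5 (304) and Ugt2b36 (274). In starved liver they were those of Sult1a1 (879), Sult1d1 (789), Ugt1a1 (514), Sult2a1 (303) and Sult3a1 (289). Sult2a8, outside the rule, was at 423 CPM per kb in fed and 95.4 in starved liver. Sult1e1 went from 0.744 to 80.5 CPM per kb on this scale. Reads that were ambiguous or had several places are missing from these levels, so genes with close relatives are understated.

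Conjugation needs its donors. Of 13 genes for the supply of UDP-glucuronate and PAPS, 11 were tested, 3 rose and 3 fell (median log2 fold change 0.02). That is 27.3% in each direction, where 18.6% of all tested genes rose and 20.0% fell. Both PAPS synthases fell: Papss2 from 372 ± 50.6 to 188 ± 19.7 CPM (−0.99 ± 0.12) and Papss1 from 14.2 ± 2.04 to 5.96 ± 1.5 CPM (−1.26 ± 0.18), and the log2 fold changes without starved livers 2 and 4 were −0.91 and −1.0. Their levels did not overlap between groups (adjusted p = 0.000196 and 0.000462, edgeR). The sulfate transporter Slc26a1 fell (−0.48 ± 0.17), a call that was lost with DESeq2's size factors (−0.45) and without any of fed livers 2 to 5 or starved livers 1, 3 and 4. Impad1, a phosphatase of the spent sulfate donor (0.60 ± 0.15), and the PAPS transporters Slc35b3 (0.52 ± 0.14) and Slc35b2 (0.41 ± 0.12) rose; library totals alone left both transporters uncalled (0.36 and 0.24). Without fed liver 4 the call of Slc35b2 was lost too (0.37). Ugp2, which makes UDP-glucose, stood at 649 ± 88.9 and 524 ± 139.6 CPM (−0.31 ± 0.18, adjusted p = 0.186, edgeR), and Ugdh, which oxidises it to UDP-glucuronate, at 91.7 ± 24.2 and 108 ± 36.5 CPM (0.24 ± 0.25, adjusted p = 0.454). Without starved liver 5 Ugp2 was called (−0.45).

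Of 11 transporters that carry conjugates or take up organic anions, 2 rose and 1 fell (median −0.01), and 3 fell without starved liver 2 and 2 without starved liver 5. With all livers 18.2% rose and 9.09% fell, against 18.6% and 20.0% of all tested genes. Abcc3, which exports glucuronides to blood, rose from 156 ± 34.4 to 359 ± 71.8 CPM (1.20 ± 0.19), and the uptake carrier Slco1a4 from 139.9 ± 36.7 to 696 ± 242 CPM (2.31 ± 0.26; 1.91 without livers 2 and 4). Slco1a1, a related carrier, fell from 217 ± 71.5 to 13.1 ± 6.08 CPM (−4.05 ± 0.34; −3.69 without them). Abcc2, the canalicular exporter of conjugates, was at 263 ± 37.6 and 221 ± 32.2 CPM and was not called, except with library totals alone (−0.40). Of 8 sulfatases, glucuronidase and related enzymes in the files, 1 rose and 3 fell (12.5% and 37.5%, median 0.06): Arsg (1.12 ± 0.20), and Arsb (−0.71 ± 0.19), Arsa (−0.64 ± 0.22) and Ids (−0.52 ± 0.13). These 4 are lysosomal sulfatases of glycosaminoglycans or sulfolipids rather than of drug or steroid conjugates. Gusb, which cleaves glucuronides, was at 15.1 ± 2.60 and 18.4 ± 4.38 CPM and was not called. The call of Arsa was lost without any of fed livers 2 to 4 or starved livers 1, 3 and 4.

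Among 21 regulators known to act on these genes, 1 rose and 4 fell (4.76% and 19.0%, median −0.23), where 18.6% of all tested genes rose and 20.0% fell. Ppara, the fatty acid receptor (−1.20 ± 0.21), Cebpa (−0.82 ± 0.19) and Onecut1 (−1.29 ± 0.39), transcription factors of hepatocytes, and Esr1, the estrogen receptor (−0.52 ± 0.18), fell. The call of Onecut1 was lost without fed liver 4 (−0.84) or starved liver 4 (−1.09), and that of Esr1 with DESeq2's size factors (−0.49) and without any of fed livers 2 to 5 or starved livers 1, 3 and 4. Hnf4a rose (0.51 ± 0.18), a call lost without any single fed liver, without starved liver 2 or 4, without both (0.20), with limma-voom and with library totals alone. The xenobiotic receptors were not called with all libraries: Nr1i3 (CAR) stood at 109 ± 12.6 and 136 ± 37.7 CPM, Nr1i2 (PXR) at 80.3 ± 6.79 and 84.9 ± 6.20 CPM, Ahr at 74.7 ± 14.4 and 57.0 ± 7.95 CPM and Nfe2l2 (NRF2) at 45.9 ± 4.31 and 33.0 ± 14.1 CPM. Nr1i3 was called without starved livers 2 and 4 (0.59, adjusted p = 0.00083, edgeR), and Ahr was called under 7 of 20 alternatives in the downward direction. Of all regulators, 8 fell without starved liver 2, 2 without starved liver 4 and 7 without both.

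Known target genes of these receptors in other families were read beside them. Of 20 tested, 9 rose and 5 fell (45.0% and 25.0%, median 0.49), against 18.6% and 20.0% of all tested genes. Cyp2b10, the standard target of CAR, rose from 15, 20.8, 18.2, 41.2 and 27.7 CPM in fed livers 1 to 5 to 278, 1248, 258, 899 and 394 CPM in starved livers 1 to 5 (4.65 ± 0.51, adjusted p = 9.44e-05, edgeR; 3.67 without livers 2 and 4). All starved livers were above all fed livers, and livers 2 and 4 were the highest, as for Sult1e1. Por, the P450 reductase, rose (1.63 ± 0.34; 1.0 without livers 2 and 4), as did Srxn1 (1.58 ± 0.25). Srxn1 is a known target of NRF2. So are Gclc (−0.67 ± 0.12) and Gclm (−0.55 ± 0.13), which fell, and Hmox1 (1.20 ± 0.25) and Txnrd1 (0.36 ± 0.09), which rose. Of the known AHR targets Cyp1a2 fell (−1.58 ± 0.44; −1.02 without livers 2 and 4), and Cyp1a1 (1.57 ± 0.29) and Cyp1b1 (1.21 ± 0.23) rose. Cyp2c55 (−1.99 ± 0.33) and Alas1 of haem synthesis (−0.87 ± 0.24) fell, while Cyp3a13 (1.24 ± 0.14) and Cyp3a11 (0.86 ± 0.26) rose.

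Genes of other families that are known to be higher in one sex were read because several SULT genes belong to that class. Of 11 tested female-predominant genes, 2 rose and 4 fell (18.2% and 36.4%, median −0.19), against 18.6% and 20.0% of all tested genes. Cyp17a1 (1.97 ± 0.15) was among those that rose, and Hao2 (−2.29 ± 0.46), Acot3 (−1.66 ± 0.42; −1.18 without livers 2 and 4), Cyp2a4 (−1.51 ± 0.36) and Cyp2b13 (−1.03 ± 0.25) fell. Of 13 tested male-predominant genes, 0 rose by edgeR and 5 fell (38.5%, median −0.59), among them Hsd3b5 (from 5.75 ± 2.79 to 0.131 ± 0.109 CPM), Slco1a1 and Serpina1e (−1.98 ± 0.56). In the upward direction there were 0 at an unadjusted p under 0.05 in edgeR, 0 by DESeq2 and 0 by limma-voom, and 1 rose without starved livers 2 and 4. Of the SULT genes named above as differing between the sexes, Sult1e1 had a log2 fold change of 6.74, Sult2a1 of 0.39 and Sult3a1 of −0.10. Sult2a1 and Sult3a1 were not called.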

How the data were processed

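RNA was sequenced from the livers of 10 mice, 5 fed and 5 starved, with a kit that, per the labels, marks strand. Tools in the submitters' processing notes are TopHat2 2.0.0, Bowtie2 2.0.0, CASAVA 1.8.2, edgeR 3.6.4 and HTSeq, on build mm10. Not given in the sources used here are HTSeq's version, its annotation and its strand setting. The deposited values are raw read counts by gene symbol, and their tallies of unassigned reads (58.2% to 68.8% of a library's tallied reads) stayed out of library sizes and tests. Reads with more than 1 place were not counted, which lowers genes with close relatives.

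In R 4.3.3, genes were kept with edgeR 4.0.16 (filterByExpr; 12796 of 23420 genes), scaled by TMM and compared between starved and fed livers with edgeR's quasi-likelihood test, Benjamini-Hochberg adjusted over all tested genes. Calls were made under an adjusted p of 0.05. Values are CPM as mean ± SD (n = 5), log2 fold changes are starved against fed, and ± beside one is its SE. On simulated counts of 12796 genes, 12596 of them unchanged, 68.7% of 2-fold and 7.46% of 1.5-fold changes were recovered. Far more genes were called in the livers (38.6%), so these shares cannot be carried over to them. The labels speak of pairs of mice but tie no replicate number to a pair, litter or day, and deviations of like-numbered livers correlated at −0.06 to 0.25, so replicate numbers were not used as a block. Libraries of 1 group differed by more than sampling noise. The labels name mice, not separate extractions, so p-values measure the spread between these samples.

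The genes, lists, motifs and alternatives were chosen with earlier results of these data known. Values per liver are given for called genes with at least a 2-fold change and 1 CPM, for the 5 most abundant UGT and 5 most abundant SULT genes, and for some others chosen after their values were seen. Of each list, up to 3 genes that rose and 3 that fell by the largest change are named. Regulators and the enzymes Ugdh, Ugp2, Papss1 and Papss2 could be named whatever their values. Cyp2b13, Gusb, Abcc2, Cyp1a1, Cyp1b1, Gclc, Gclm, Hmox1, Txnrd1, Cyp3a11 and Cyp3a13 were named after their values were seen. So were the markers Alb, Apoa1, Ttr, Trf, Spp1, Dcn, Fabp2, Mmp8 and Retnlg, and the relatives under other symbols. Alternatives were other scalings, DESeq2 1.42.0, limma-voom (limma 3.58.1), other filters, a stricter threshold, a replicate block and leaving out libraries. Exons, lengths and shared 50-base stretches came from the GENCODE annotation of GRCm38 (mm10), in which all 38 genes were found.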

Additional observations from a re-analysis of the deposited data

Results flagged for a closer look

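Of 56 groups of 5 livers, 2 for each tested gene, 3 held a liver that stood far from the others by Dixon's criterion, which chance meets in about 1 in 20 groups. For Ugt1a6b, starved liver 5 stood at 21.6 CPM, where the next liver was at 17.4 and the lowest at 15.8 CPM. For Ugt2b37, starved liver 5 stood at 16.5 CPM, and the next at 6.68 CPM. For Ugt2b1, fed liver 2 stood at 406 CPM above the other fed livers, the next of them at 356 CPM. Both starved values come from the same liver, which was also the highest starved liver for Ugt2b1, Ugt2b5, Ugt1a5 and Sult5a1. Without starved liver 5 Ugt2b37 was still called, as was Ugt2b1 without fed liver 2.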

How the results depend on the processing

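All 16 called genes kept their direction under 20 alternatives, and 9 kept their call in each of them: Sult1a1, Sult1c2, Sult1d1, Sult1e1, Sult5a1, Ugt1a5, Ugt1a9, Ugt2b1 and Ugt2b38 (19 alternatives, since 1 filter removed it). Genes that fell numbered 5 at an adjusted p under 0.01, 6 without starved livers 2 and 4, and 6 to 10 with 1 library left out. UGT genes that rose numbered 1 with library totals and 1 at 0.01, and those that fell 3 at 0.01, 3 without starved livers 2 and 4, and 3 to 6 with 1 left out. SULT genes that fell numbered 2 at 0.01. In the cofactor list 1 rose with totals and 1 at 0.01. In the deconjugation list 2 rose without livers 2 and 4 and 1 fell at 0.01. Of the transporters 4 fell with totals, 2 each by DESeq2, voom, the replicate block and without livers 2 and 4, and 1 to 3 with 1 library left out. Of the regulators 0 rose with totals, voom, the replicate block or at 0.01, and 0 to 1 with 1 left out. Regulators that fell numbered 8 with totals, 2 at 0.01, 7 without livers 2 and 4 and 2 to 8 with 1 left out. Of the xenosensor targets 3 fell at 0.01, and of the male-predominant genes 3 fell at 0.01 and 1 rose without livers 2 and 4. The cause of these shifts was not tested. With the replicate number as a block, 6 of the genes rose and 9 fell, and 3 of 10 libraries correlated best with their own number.

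The sign of genes that were not called turned for Sult1b1 (0.03 without starved livers 2 and 4), Sult3a1 (−0.23 to 0.10 with 1 library left out, 0.26 without both), Ugt2b36 (−0.19 to 0.02, with 0.01 and 0.02 without starved liver 4 or 2, and 0.15 without both), Ugt3a1 (−0.10 with totals, −0.01 to 0.14 with 1 left out, −0.00 without starved liver 1) and Nr1i2 (−0.08 with totals). In simulated counts 7.46% of 1.5-fold changes were found, but far fewer genes changed there than were called in the livers. How many changes under 2-fold were missed here is therefore not known.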

Other observations

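Some sulfotransferases carry other symbols in the count files and so fall outside the rule by symbol. They were looked up after the values of the named genes were seen. For 2810007J24Rik, now named Sult2a8, a SULT2 gene of liver, the log2 fold change without starved livers 2 and 4 was −1.62, against −2.15 ± 0.42 with all livers. Gm4794, now Sult3a2, was not called, with 23.3 ± 12.2 CPM in fed and 33.9 ± 15 CPM in starved livers (0.54 ± 0.41, adjusted p = 0.308, edgeR), but was without starved livers 2 and 4 (0.92). Gm766, now Sult6b2, had no read.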
